A study of Mus musculus with 4 samples.

Results

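The 10 genes described here were taken from a list of genes linked to the differentiation of B cells into antibody-secreting plasma cells. They are *Prdm1*, *Irf4*, *Xbp1*, *Jchain*, *Mzb1*, *Sdc1*, *Cd38*, *Slamf7*, *Ell2* and *Tent5c*. *Cd38* is on this list although, in the mouse, it is lower on plasma cells than on naive B cells. All 10 were found among the 41214 genes of the count table, and all 10 had enough counts to be tested. RNA was measured by RNA-seq in unstimulated B220+ splenocytes, that is, spleen cells selected on beads for the B cell form of CD45, from MIZ-1WT and MIZ-1ΔPOZ mice. MIZ-1ΔPOZ mice carried MB1-Cre, a Cre recombinase driven by the *Cd79a* promoter and active in B cells, together with Miz-1floxPOZ alleles, so that the POZ domain of the transcription factor MIZ-1 was deleted in B cells while its DNA-binding zinc fingers were kept. MIZ-1WT mice were the wild-type controls. Whether they carried the Cre is not given in the sources used here. *Cd79a*, the gene whose promoter drives the Cre, had 14668 and 13089 counts in MIZ-1WT and 4891 and 5939 in MIZ-1ΔPOZ, a log2 fold change of -1.44 (adjusted p = 0.00157 from edgeR). At the protein level, the authors reported no reduction of CD79A in MIZ-1ΔPOZ cells. Both lines were on the C57BL/6 background and the mice were young adults. Each genotype had 2 libraries, described by the submitters as biological duplicates, and between 43026814 and 46387209 reads per library were counted on genes.

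Plasma cells arise when an activated B cell switches off the transcription factors that keep it a B cell and switches on *Prdm1*, *Irf4* and *Xbp1*. These factors expand the endoplasmic reticulum and the machinery that folds, assembles and secretes immunoglobulin. In the spleen, plasma cells form from marginal zone B cells and from follicular B cells, often after a germinal center. Mature plasma cells carry little B220 on their surface, so a selection on B220 keeps B cells and early plasmablasts better than mature plasma cells.

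Some properties of the libraries touch the values that follow. *Zbtb17*, which encodes MIZ-1, had 2087 and 1946 counts in the MIZ-1WT replicates and 1774 and 1669 in the MIZ-1ΔPOZ replicates, with a log2 fold change of -0.32 (adjusted p = 0.00857 from edgeR). Counts cover all exons of the gene together, so they do not show whether the exons of the POZ domain were lost. *Xist*, the RNA of the inactive X chromosome, had 49 and 60 counts in MIZ-1WT and 38145 and 40838 in MIZ-1ΔPOZ, and 4 genes of the Y chromosome (*Uty*, *Kdm5d*, *Ddx3y* and *Eif2s3y*) had from 4778 to 15840 counts against 245 to 680. Sex-linked RNA therefore differed between the genotypes, Y-linked RNA was present at a low level in both MIZ-1ΔPOZ libraries, and sex and genotype cannot be told apart here. The strand setting of the authors' counting is not given in the sources used here.

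Of the 10 plasma cell genes, 7 were higher in MIZ-1ΔPOZ, 0 were lower and 3 did not pass the test (edgeR's quasi-likelihood test over 14554 genes, Benjamini-Hochberg adjusted p under 0.05). The genes that rose were *Jchain*, *Tent5c*, *Prdm1*, *Mzb1*, *Sdc1*, *Xbp1* and *Ell2*, and those that did not pass were *Irf4*, *Cd38* and *Slamf7*. At an unadjusted p under 0.05 and by the Wald test of DESeq2, the number lower was also 0. The median log2 fold change of the 10 genes was 0.58, against -0.0064 over all tested genes, for which the quartiles were -0.23 and 0.33. Over all tested genes, 3076 (21.1%) were called higher and 2746 (18.9%) were called lower. The 10 genes were chosen with earlier results of these data known. Their counts and median therefore describe the list and do not test it. In the same 7 plasma cell genes both MIZ-1ΔPOZ libraries lay above both MIZ-1WT libraries, which held for 37.2% of all tested genes. In cells analysed in bulk, more cells of a type and more RNA per cell cannot be told apart. With any single library left out, the log2 fold changes of the 7 genes that rose stayed positive. They ranged from 0.42 for *Ell2* without MIZ-1WT replicate 1 to 2.63 for *Jchain* without MIZ-1WT replicate 2. Such a fit has a lone library in a genotype, which was assumed to vary like the other genotype.

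**Figure D1:**
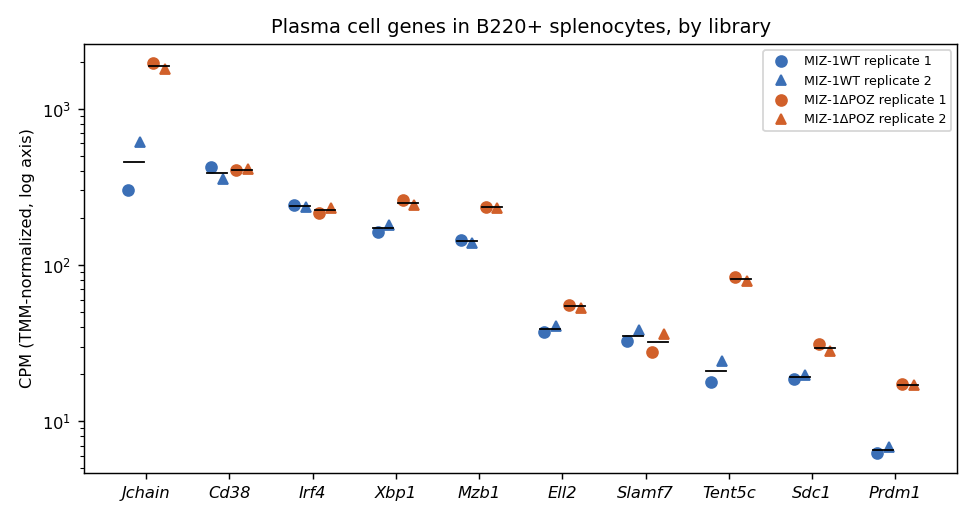
Level of each plasma cell gene in each library, in TMM-normalized CPM on a log axis, with circles and triangles for replicates 1 and 2 and a bar at each genotype's mean. The 7 genes that rose have both MIZ-1ΔPOZ libraries above both MIZ-1WT libraries, and *Jchain* has the widest gap between its MIZ-1WT libraries, at 302 and 615 CPM.

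The 3 genes with the largest differences, *Jchain*, *Tent5c* and *Prdm1*, did not share the base composition of their promoters. The sequences shown are 300 bases long, from 250 before to 50 after the RefSeq start of each gene (GRCm38.p6), read in the direction of transcription. Capitals mark CAGGTG, an E-box bound by E proteins, and CCAAT, the CCAAT box, on either strand. The *Jchain* promoter, on the minus strand of chr5:88527848-88528147, has 42.3% G and C. The *Tent5c* promoter, on the minus strand of chr3:100489143-100489442, has 78.0%. The *Prdm1* promoter, on the minus strand of chr10:44458699-44458998, has 59.7%, and the median over all 32851 promoters of the table is 52.7%.
Jchain: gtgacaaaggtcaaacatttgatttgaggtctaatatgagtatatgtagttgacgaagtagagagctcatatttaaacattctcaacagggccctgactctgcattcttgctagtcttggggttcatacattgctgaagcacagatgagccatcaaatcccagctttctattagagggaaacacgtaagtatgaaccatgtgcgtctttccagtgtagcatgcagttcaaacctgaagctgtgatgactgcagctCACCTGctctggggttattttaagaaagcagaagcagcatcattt
Tent5c: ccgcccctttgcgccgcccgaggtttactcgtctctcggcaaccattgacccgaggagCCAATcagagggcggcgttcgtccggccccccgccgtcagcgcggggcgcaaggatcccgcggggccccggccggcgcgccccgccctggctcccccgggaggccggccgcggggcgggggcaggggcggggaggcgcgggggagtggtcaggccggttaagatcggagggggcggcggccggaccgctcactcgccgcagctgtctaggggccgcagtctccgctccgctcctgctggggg
Prdm1: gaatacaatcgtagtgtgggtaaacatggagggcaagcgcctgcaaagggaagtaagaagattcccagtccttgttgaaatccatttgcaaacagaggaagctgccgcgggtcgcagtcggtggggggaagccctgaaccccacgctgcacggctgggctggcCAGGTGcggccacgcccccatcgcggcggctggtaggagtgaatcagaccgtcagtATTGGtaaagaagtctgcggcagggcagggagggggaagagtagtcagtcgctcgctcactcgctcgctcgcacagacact

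RefSeq promoters were used for 9 of the 10 genes, all except *Mzb1*. CAGGTG was found once in *Jchain*, once in *Prdm1* (87 bases before the start) and once in *Xbp1* (131 bases before the start), and in 20.2% of all promoters. CCAAT was found once in *Tent5c* (192 bases before the start), once in *Prdm1* (31 bases), once in *Sdc1* (82 bases) and 3 times in *Ell2*, and in 37.4% of all promoters. No match was found in the 9 promoters to TGACGTGG, a site of XBP1, AGTGAAAG, a site of PRDM1, GGAANNGAAA, a composite site of ETS and IRF factors, or CACGTG, another E-box, which were present in 0.676%, 1.32%, 2.72% and 7.15% of all promoters. Both strands were searched, and CACGTG and TGACGTGG share their letters ACGTG. A match or its absence says only whether these letters are in these windows. Among the genes that rose, the share of G and C ranged from 42.3% in *Jchain* to 78.0% in *Tent5c*. Among those that did not pass, it was 39.0% in *Slamf7*, 51.7% in *Cd38* and 61.0% in *Irf4*.

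The transcription factors of the program were measured first. *Prdm1* (ENSMUSG00000038151, GRCm38 chromosome 10 from 44437177 to 44528501, minus strand) encodes BLIMP-1, a repressor that shuts down the B cell program and is required for plasma cells. It had 272 and 287 counts in the MIZ-1WT replicates and 827 and 747 in the MIZ-1ΔPOZ replicates, or 6.23 and 6.83 against 17.4 and 17.0 CPM (counts divided by library size after TMM normalization). Both MIZ-1ΔPOZ libraries were far above both MIZ-1WT libraries and the replicates of each genotype lay close together. Its log2 fold change was 1.40 (standard error 0.0955, 95% confidence interval 1.16 to 1.63, adjusted p = 0.000887), and 1069 of the tested genes had a larger one. *Prdm1* had the lowest level per kilobase of exon among the 10 genes in both genotypes, and its promoter from RefSeq lies inside the span that GENCODE gives the gene, since GENCODE includes transcripts with starts further upstream.

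*Xbp1* (ENSMUSG00000020484, chromosome 11 from 5520659 to 5525893, plus strand) encodes a transcription factor of the unfolded protein response that raises secretory capacity. It had 7123 and 7601 counts in MIZ-1WT and 12405 and 10601 in MIZ-1ΔPOZ, or 163 and 181 against 261 and 241 CPM. The genotypes did not overlap and the difference was larger than the gap between replicates. *Xbp1* had a log2 fold change of 0.55 (standard error 0.0683, 95% confidence interval 0.38 to 0.71, adjusted p = 0.00329). The active form of XBP1 comes from mRNA cut by the endoplasmic reticulum kinase IRE1, and gene counts do not tell the cut and uncut forms apart.

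*Irf4* (ENSMUSG00000021356, chromosome 13 from 30749226 to 30766976, plus strand) encodes a transcription factor that acts with ETS family partners at low amounts and drives plasma cell differentiation at high amounts. It had 10610 and 9874 counts in MIZ-1WT and 10291 and 10213 in MIZ-1ΔPOZ, or 243 and 235 against 216 and 233 CPM. The MIZ-1ΔPOZ libraries lay just below the MIZ-1WT libraries, and 1 of them by less than the gap between replicates. Its log2 fold change of -0.09 did not pass the test (95% confidence interval -0.22 to 0.04, adjusted p = 0.225). The upper bound of *Irf4* lay below the lower bounds of *Prdm1* and *Xbp1*.

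A group of 4 genes acts in the making of secreted immunoglobulin, and all 4 rose. *Jchain* (ENSMUSG00000067149, chromosome 5 from 88519809 to 88527891, minus strand) encodes the joining chain that links IgM and IgA into polymers. Its counts were 13183 and 25872 in MIZ-1WT and 92716 and 78429 in MIZ-1ΔPOZ, or 302 and 615 against 1947 and 1786 CPM. The MIZ-1WT libraries differed from each other by 1.03 on the log2 scale, the widest gap between replicates among the 10 genes, and both stayed below the MIZ-1ΔPOZ libraries. The log2 fold change was 2.03 (standard error 0.316, 95% confidence interval 1.24 to 2.81, adjusted p = 0.00616), a ratio of means of 4.07. It was 1.60 without MIZ-1WT replicate 1 and 2.63 without MIZ-1WT replicate 2, and passed the test in both cases. *Jchain* had the largest log2 fold change of the 10 genes and the widest confidence interval.

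*Tent5c* (ENSMUSG00000044468, chromosome 3 from 100451628 to 100489324, minus strand) encodes a poly(A) polymerase that lengthens the tails of mRNAs for secreted proteins, immunoglobulin among them. It had 774 and 1028 counts in MIZ-1WT and 4017 and 3483 in MIZ-1ΔPOZ, or 17.7 and 24.5 against 84.4 and 79.3 CPM. Every MIZ-1ΔPOZ value was well above every MIZ-1WT value. This gave a log2 fold change of 1.96 (standard error 0.148, 95% confidence interval 1.59 to 2.32, adjusted p = 0.00108), close to that of *Jchain* with a narrower interval. *Tent5c* moved from the ninth place to the sixth in the order of levels per kilobase of exon.

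*Mzb1* (ENSMUSG00000024353, chromosome 18 from 35647267 to 35649367, minus strand) encodes a co-chaperone of the endoplasmic reticulum that assists the assembly of IgM and is abundant in marginal zone B cells, B-1 cells and plasma cells. It had 6331 and 5806 counts in MIZ-1WT and 11240 and 10244 in MIZ-1ΔPOZ, or 145 and 138 against 236 and 233 CPM. Replicates differed little and the genotypes did not overlap. *Mzb1* had a log2 fold change of 0.73 (standard error 0.0470, 95% confidence interval 0.61 to 0.85, adjusted p = 0.000803), the smallest adjusted p among the 10 genes. The annotation used here gives *Mzb1* 695 exon bases in common with the annotated gene SPATA24 on the same strand, which was not among the counted genes.

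*Ell2* (ENSMUSG00000001542, chromosome 13 from 75706757 to 75772364, plus strand) encodes a transcription elongation factor that favors the secreted over the membrane form of immunoglobulin heavy chain mRNA. It had 1634 and 1708 counts in MIZ-1WT and 2660 and 2317 in MIZ-1ΔPOZ, or 37.4 and 40.6 against 55.9 and 52.8 CPM. The genotypes did not overlap, and the difference was the smallest among the genes that rose. For *Ell2* the log2 fold change was 0.48 (standard error 0.0672, 95% confidence interval 0.31 to 0.64, adjusted p = 0.00462). An antisense gene, 1700037F03Rik, has 94 exon bases in common with *Ell2* and was not among the counted genes, so its reads, if counted without strand, would fall in *Ell2*.

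The last 3 genes encode surface proteins, and only *Sdc1* among them rose. *Sdc1* (ENSMUSG00000020592, chromosome 12 from 8771323 to 8793715, plus strand) encodes CD138, a heparan sulfate proteoglycan and the usual sorting marker of mouse plasma cells. It had 815 and 838 counts in MIZ-1WT and 1480 and 1239 in MIZ-1ΔPOZ, or 18.7 and 19.9 against 31.1 and 28.2 CPM. The genotypes did not overlap. For *Sdc1* the log2 fold change was 0.62 (standard error 0.0815, 95% confidence interval 0.42 to 0.82, adjusted p = 0.00373).

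*Cd38* (ENSMUSG00000029084, chromosome 5 from 43868553 to 43912375, plus strand) encodes an ectoenzyme that consumes NAD. In the mouse it is high on naive B cells and lower on germinal center B cells and plasma cells, unlike in humans. It had 18428 and 14881 counts in MIZ-1WT and 19263 and 18008 in MIZ-1ΔPOZ, or 422 and 354 against 405 and 410 CPM, so that both MIZ-1ΔPOZ values fell between the MIZ-1WT values. For *Cd38* the log2 fold change was 0.07 (95% confidence interval -0.14 to 0.28, adjusted p = 0.555). It was -0.05 without MIZ-1WT replicate 2 and 0.20 without MIZ-1WT replicate 1, and passed the test in neither case. The antisense gene Gm16015 at this locus had from 0 to 2 counts per library.

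*Slamf7* (ENSMUSG00000038179, chromosome 1 from 171632403 to 171653035, minus strand) encodes CD319, a receptor found on plasma cells and also on NK cells and macrophages. It had 1419 and 1605 counts in MIZ-1WT and 1314 and 1600 in MIZ-1ΔPOZ, or 32.5 and 38.2 against 27.6 and 36.4 CPM. The genotypes overlapped. *Slamf7* had a log2 fold change of -0.14 (standard error 0.148, 95% confidence interval -0.51 to 0.22, adjusted p = 0.478). This value rested on 1 library: it was -0.35 with an adjusted p of 0.0468 without MIZ-1ΔPOZ replicate 2, and 0.05 with an adjusted p of 0.775 without MIZ-1ΔPOZ replicate 1. The antisense gene Gm37787 has 423 exon bases in common with *Slamf7* and was not among the counted genes.

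**Figure D2:**
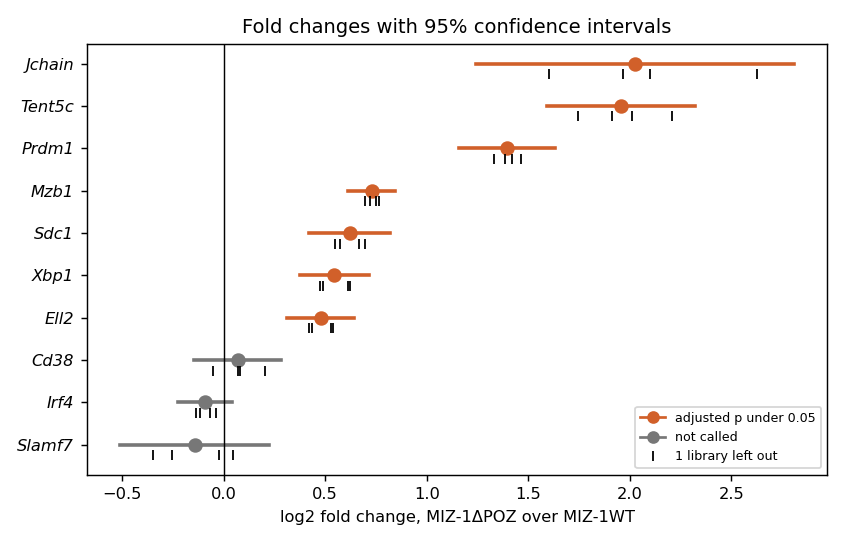
Log2 fold change of each plasma cell gene, MIZ-1ΔPOZ over MIZ-1WT, as a point with its 95% confidence interval from edgeR, and short ticks for the values with each of the 4 libraries left out. The intervals of the 7 genes that rose lie above 0, from 0.31 at the lower end of *Ell2* to 2.81 at the upper end of *Jchain*, and the ticks of *Cd38* and *Slamf7* fall on both sides of 0.

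Levels of different genes were compared as CPM per kilobase of exon. In MIZ-1WT the order was *Jchain* (182 ± 88.0 CPM per kilobase, SD, n = 2), *Mzb1* (117 ± 4.07), *Cd38* (99.8 ± 12.4), *Xbp1* (53.0 ± 3.82), *Irf4* (48.7 ± 1.20), *Slamf7* (7.72 ± 0.874), *Sdc1* (5.07 ± 0.233), *Ell2* (3.97 ± 0.229), *Tent5c* (3.46 ± 0.779) and *Prdm1* (1.17 ± 0.0751). The means of *Jchain* and *Mzb1*, of *Jchain* and *Cd38*, of *Xbp1* and *Irf4*, and of *Ell2* and *Tent5c* lay closer together than the sum of their SDs. In MIZ-1ΔPOZ the first 5 places were the same, with *Jchain* at 742 ± 45.2, *Mzb1* at 193 ± 1.60, *Cd38* at 105 ± 1.01, *Xbp1* at 77.3 ± 4.16 and *Irf4* at 45.8 ± 2.38 CPM per kilobase. They were followed by *Tent5c* (13.4 ± 0.585), *Sdc1* (7.79 ± 0.532), *Slamf7* (7.0 ± 1.37), *Ell2* (5.53 ± 0.223) and *Prdm1* (3.08 ± 0.0451). There, *Slamf7* was not separated from *Sdc1* or *Ell2* by more than the sum of their SDs, whereas *Xbp1* stood clear of *Irf4*.

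Other genes of the plasma cell program were taken as a list of 16, all of which were tested. Of these, 11 were higher, 2 were lower and 3 did not pass, and the median log2 fold change was 0.41. The largest differences were in *Tnfrsf17*, the BCMA receptor that sustains long-lived plasma cells, in *Eaf2*, a partner of ELL proteins, and in *Fkbp11* and *Derl3*, which act in protein folding and in the disposal of misfolded proteins. *Tnfrsf17* had 26 and 32 counts in MIZ-1WT and 182 and 178 in MIZ-1ΔPOZ, a log2 fold change of 2.53 (adjusted p = 0.00134). Log2 fold changes were 1.93 for *Eaf2*, 1.47 for *Fkbp11* and 1.35 for *Derl3* (adjusted p = 0.00178, 0.00238 and 0.00144). *Pou2af1*, which encodes the immunoglobulin gene coactivator OCA-B, rose by 0.55, and *Edem1* and *Txndc5* of the endoplasmic reticulum by 0.41 and 0.40. *Glcci1* and *Tnfrsf13b*, the TACI receptor, were the genes called lower, by 0.62 and 0.22 on the log2 scale. *Cxcr4* had a log2 fold change of -0.59 that did not pass the test (adjusted p = 0.0535 from edgeR). Both of its MIZ-1ΔPOZ libraries lay below both MIZ-1WT libraries. At an unadjusted p under 0.05, 3 of the 16 were lower. *Glcci1*, *Tnfrsf13b* and *Cxcr4* are named because they are exceptions, chosen after their values were seen. With 1 library left out, from 8 to 11 of the 16 were called higher and from 1 to 3 lower.

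Secretory and unfolded protein response genes, which XBP1 and related factors control, numbered 22. Of these, 13 were higher, 0 were lower and 9 did not pass (edgeR), with a median log2 fold change of 0.23. At an unadjusted p under 0.05, 1 was lower, and 0 were lower by DESeq2. *Pdia4*, an oxidoreductase of the endoplasmic reticulum, went from 783 and 889 CPM to 1487 and 1356 CPM, a log2 fold change of 0.77 (adjusted p = 0.0023). Both MIZ-1ΔPOZ libraries were above both MIZ-1WT libraries. *Creld2* rose by 0.61, *Dnajb9* by 0.43, *Ern1*, which encodes IRE1, by 0.40, *Sec61b* by 0.39 and *Sec61a1*, the channel of the translocon, by 0.35. *Hspa5*, the major chaperone BiP, had a log2 fold change of 0.16 that did not pass the test (adjusted p = 0.111), although it passed without MIZ-1ΔPOZ replicate 2. Without MIZ-1WT replicate 1 the genes called higher numbered 6 of 22.

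Immunoglobulin constant region genes were listed as 12, of which 9 were matched by symbol and tested. Of these, 8 were higher and 1 was lower (*Iglc2*, a lambda light chain, named after its value was seen), and the median log2 fold change was 2.03. *Ighm*, the heavy chain of IgM, went from 4644 and 5979 CPM to 11162 and 10351 CPM, a log2 fold change of 1.02 (adjusted p = 0.00378). *Igkc*, the kappa light chain, rose by 0.83. The switched heavy chains rose more, with log2 fold changes of 3.60 for *Ighg2c*, 3.13 for *Ighg2b*, 2.81 for *Ighg1* and 2.52 for *Ighg3* (adjusted p = 0.00328, 0.00115, 0.00129 and 0.000739). *Ighg2c* had 22.1 and 36.1 CPM in MIZ-1WT and 214 and 490 CPM in MIZ-1ΔPOZ, so its MIZ-1ΔPOZ replicates differed widely while staying above both controls. Constant region genes resemble each other closely and reads without a unique alignment were not counted, so how reads were divided among these genes is uncertain. Reads of these genes come from surface receptors as well as from secreted antibody.

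Factors that hold B cells in the B cell state or oppose plasma cell differentiation showed the other direction. Of 11 genes, 9 were lower, 1 was higher and 1 did not pass, with a median log2 fold change of -0.46. Of those called lower, *Pax5* and *Ebf1* are also on the list of pan-B cell markers below, and *Irf8* is also on that of family relatives. The counts of these lists are therefore not separate. *Bcl6*, the germinal center repressor that opposes *Prdm1*, fell from 4983 and 4421 counts to 2031 and 1887 counts, a log2 fold change of -1.36 (adjusted p = 0.000682). *Id3*, an inhibitor of E proteins, had a log2 fold change of -0.91, *Bach2* -0.52, *Ebf1* -0.48, *Pax5* -0.46 and *Spib* -0.25. *Mitf*, which represses *Irf4*, rose by 1.25 and had 109 and 107 counts in MIZ-1WT and 343 and 210 in MIZ-1ΔPOZ. *Mitf* is also active in macrophages. The genes called lower numbered 4 without MIZ-1WT replicate 1 and 3 without MIZ-1WT replicate 2, and *Bach2*, *Pax5*, *Spib* and *Mitf* did not pass in either case.

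Relatives of the 10 genes by family were listed as 25, of which 23 were tested. Of these, 4 were higher, 11 were lower and 8 did not pass, with a median log2 fold change of -0.08. Among the syndecans, *Sdc3* went from 15.9 and 15.6 CPM to 72.3 and 54.2 CPM, a log2 fold change of 2.01 (adjusted p = 0.000961), and *Sdc4* had a log2 fold change of -0.34 (adjusted p = 0.00503). Per kilobase of exon, *Sdc4* was the more abundant in both genotypes, at 110 and 86.5 CPM per kilobase against 5.07 and 7.79 for *Sdc1*. Among the poly(A) polymerases, *Tent5a* had a log2 fold change of -0.52 (adjusted p = 0.00804), opposite in direction to *Tent5c*. *Irf3*, of the family of *Irf4*, had a log2 fold change of -0.25 (adjusted p = 0.0075). Without MIZ-1WT replicate 1, the edgeR counts were 1 higher and 0 lower, and without MIZ-1WT replicate 2, they were 1 higher and 2 lower, against 10 lower by DESeq2 on all 4 libraries and 11 lower at an unadjusted p under 0.05.

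**Figure D3:**
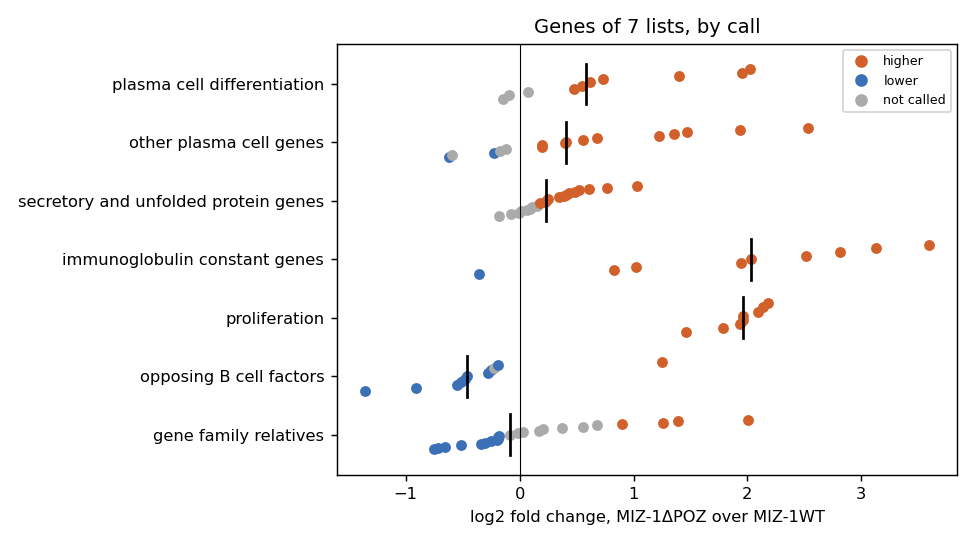
Log2 fold change, MIZ-1ΔPOZ over MIZ-1WT, of each tested gene in 7 lists, colored by call (edgeR adjusted p under 0.05), with a bar at the median of each list and points spread vertically for legibility. The medians are 0.58 for plasma cell differentiation, 0.41 for other plasma cell genes, 0.23 for secretory genes, 2.03 for immunoglobulin constant genes, 1.96 for proliferation, -0.46 for opposing factors and -0.08 for family relatives.

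Genes of other cell types and states moved with the genotype as well. All 8 proliferation genes were higher, with a median log2 fold change of 1.96, and *Mki67* went from 62.0 and 58.2 CPM to 267 and 261 CPM. All 6 germinal center B cell markers were higher, and their summed level went from 40.2 and 54.6 CPM to 242 and 191 CPM. Of 6 marginal zone B cell markers, 5 were higher, with sums of 3195 and 3197 CPM against 3593 and 3954 CPM, and *Cd1d1* had a log2 fold change of 0.67. The marginal zone markers called higher numbered 3 without MIZ-1WT replicate 2, and 1 was called lower without MIZ-1ΔPOZ replicate 2. Of 10 pan-B cell markers, 0 were higher (0 also at an unadjusted p under 0.05 and by DESeq2) and 7 were lower in edgeR, with sums of 10495 and 10802 CPM against 8828 and 9209 CPM. *Ms4a1*, which encodes CD20, had a log2 fold change of -0.23, and 2 of the 10 were called lower when either MIZ-1WT library was left out. The part of these genes in the differences of the plasma cell genes was not tested.

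All 15 macrophage markers were higher in MIZ-1ΔPOZ, with a median log2 fold change of 1.98, and none was at 0 in any library. Their summed level was 978 and 1301 CPM in the MIZ-1WT replicates and 5817 and 3637 CPM in the MIZ-1ΔPOZ replicates. *Csf1r*, *Mertk* and *Adgre1*, defining genes of macrophages, had log2 fold changes of 1.97, 2.15 and 1.71. Between the MIZ-1ΔPOZ replicates, replicate 2 over replicate 1, the macrophage markers differed by a median of -0.68 on the log2 scale, and the 7 plasma cell genes that rose differed by -0.14 to -0.017. Between the MIZ-1WT replicates, the macrophage markers differed by a median of 0.38 and the 7 genes by -0.071 to 1.03, with *Jchain* at 1.03 and *Tent5c* at 0.46 above the macrophage median and in the same direction. The part of macrophage RNA in the differences of the plasma cell genes was not tested. Plasmacytoid dendritic cells also express several plasma cell genes, and their 6 markers summed to between 62.6 and 82.3 CPM in the 4 libraries, with 1 called higher and a log2 fold change of -0.40 for *Siglech* that did not pass the test (adjusted p = 0.164). Without MIZ-1ΔPOZ replicate 1, 2 of these 6 markers were called lower. T cell markers summed to 72.9 and 54.7 CPM against 67.9 and 73.5 CPM, with 1 of 10 higher, and NK cell markers to 48.3 and 50.0 CPM against 50.4 and 54.8 CPM, with 1 of 6 higher. *Cd3e*, the defining T cell gene, was at 0.477 and 0.384 CPM on average in the genotypes. Conventional dendritic cell markers had 4 of 8 higher and 1 lower, with 2 higher without MIZ-1WT replicate 1 and 2 lower without MIZ-1ΔPOZ replicate 1. Endothelial markers had 1 of 4 higher and 1 lower, and the latter was not called when either MIZ-1WT library was left out. Neutrophil markers, with 1 of 5 tested called higher, summed to between 4.21 and 16.2 CPM, and 3 were called higher without MIZ-1ΔPOZ replicate 1 and 0 without MIZ-1WT replicate 1. Of 5 erythroid markers, 0 were called in either direction by edgeR, by DESeq2 or at an unadjusted p under 0.05, but 4 were called higher without MIZ-1ΔPOZ replicate 1 and 1 was called lower without MIZ-1ΔPOZ replicate 2. Follicular B cell markers had 2 of 3 tested lower, and 1 without MIZ-1WT replicate 2. Of 4 B-1 cell markers 2 were higher, and 0 when either MIZ-1WT library was left out.

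**Figure D4:**
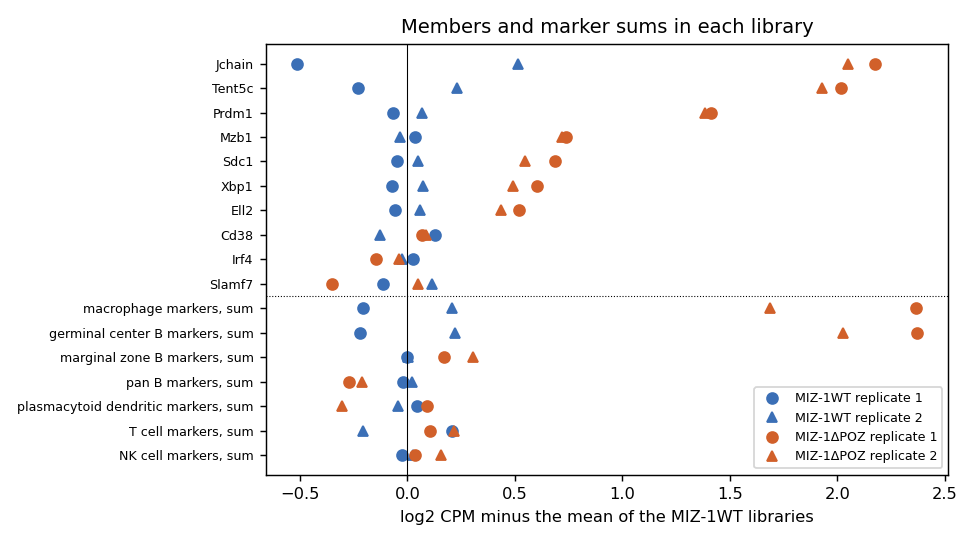
Level of each plasma cell gene and summed level of 7 marker lists in each library, as log2 CPM minus the mean of the MIZ-1WT libraries, with circles and triangles for replicates 1 and 2. Macrophage and germinal center B cell markers are higher in MIZ-1ΔPOZ replicate 1 than in replicate 2 by more than any of the 7 plasma cell genes that rose, whereas between the MIZ-1WT replicates *Jchain* and *Tent5c* differ by 1.03 and 0.46, and the macrophage sum is likewise higher in replicate 2. The sums of plasmacytoid dendritic cell, T cell and NK cell markers overlap or nearly overlap between genotypes.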

How the data were processed

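RNA-seq libraries of unstimulated B220+ splenocytes from MIZ-1WT and MIZ-1ΔPOZ mice, 2 per genotype, were grouped as labelled. The authors trimmed the reads with Trimmomatic, mapped them to mm10 (GRCm38) with TopHat2 and counted them on Ensembl genes with HTSeq. The submitters' processing notes give TopHat2 version 2.1.0, whereas the methods of the paper give another version. They deposited raw counts per gene, neither normalized nor pooled. The strand setting and the Ensembl release are not given in the sources used here. Reads that overlapped no counted feature made up 27.2% and 25.5% of the table in the MIZ-1WT replicates. In the MIZ-1ΔPOZ replicates they made up 21.6% and 21.1%. Ambiguous reads made up 0.281% to 0.302% and reads without a unique alignment 42.8% to 44.1%. Those summary lines entered neither the library sizes nor the fits.

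Gene symbols and exon lengths came from the GENCODE annotation of GRCm38, which named 40340 of 41214 genes, and promoters from RefSeq (GRCm38.p6). The 14554 genes that reached 10 counts in 2 or more libraries were compared by the quasi-likelihood test of edgeR version 4.0.16 in R version 4.3.3, with TMM factors of 0.977 to 1.03 and p-values adjusted by Benjamini and Hochberg over these genes, at a threshold of 0.05. Standard errors were computed from the log2 fold change and the F statistic. The p-values rest on the spread between 2 libraries per genotype, which edgeR moderates for each gene with the spread over all tested genes. Libraries of one genotype had correlations of log2 CPM from 0.993 upward, and libraries of different genotypes up to 0.978. The scripts were tested on simulated counts.

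The 10 genes, the gene lists and the marker lists were chosen with earlier results of these data known. Named genes were the 10 genes, the defining genes of each list and up to 4 further genes of a list with the smallest p, of which those of the marker lists are given only in part. Some genes that meet this rule are not reported here. The motifs CAGGTG and CCAAT were added after the other motifs gave no match. Alternatives were DESeq2's size factors, no filter, the DESeq2 (version 1.42.0) Wald test, a minimum mean of 30 RPM (library-scaled reads without TMM factors), removal of 482 immunoglobulin and T cell receptor genes, a replicate block and leaving out each library.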

Additional observations from a re-analysis of the deposited data

How the results depend on the processing

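The 7 plasma cell genes called higher kept that call under every alternative except a minimum mean of 30 RPM, where *Prdm1* and *Sdc1* were below the filter and not tested and the other 5 were called. That filter changed the calls over all genes to 1464 higher and 1282 lower. Leaving out 1 library left a lone library in a genotype, which was assumed to vary like the other genotype. The calls over all genes then ranged from 1367 to 3017 higher and from 837 to 2722 lower, and the median log2 fold change of the 10 genes from 0.52 to 0.65. The number of plasma cell genes called lower was 0 or 1, the 1 being *Slamf7*. The log2 fold change of *Slamf7* ranged from -0.346 to 0.046 and that of *Cd38* from -0.052 to 0.203. Replicate numbers are shared by the genotypes, but same-numbered libraries did not deviate together (correlation -0.0688), so they were not treated as pairs. A fit with the numbers as a replicate block called 2633 genes higher and 2099 lower, and it called the same 7 plasma cell genes higher and none lower. With 2 libraries per genotype, intervals are wide for genes whose replicates differ, such as *Jchain*.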
